A study of Mus musculus with 88 samples.

Results

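Among 78 nucleus accumbens libraries of the first sequencing batch, 21 carried Slc17a7, the vesicular glutamate transporter of cortical excitatory neurons, at 100 CPM or more, where CPM is its count over the library's total count, scaled to a common library size,, and 31 carried it below 10 CPM. These are called libraries with and without cortical transcripts. The other 26 lay between the limits, and 9 libraries of the second sequencing batch stood outside the rule, so that 52 of the 87 libraries with counts fell into a class. The classes were chosen by the measured level of Slc17a7 in these same counts, so everything that separates the classes below is a description, and the tests concern the 35 libraries outside the classes and the labels.

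The study compared RNA from the nucleus accumbens of mice that received a pair of herpes simplex vectors, one with nuclease-dead Cas9 fused to CREB(S133D), an always active form of that transcription factor, and one with a guide to Fosb or a non-targeted guide. All mice were on a C57BL/6 background, all groups had surgery and both vectors, and tissue was taken 6 days later. In the D1 and D2 arms, vectors that need Cre were put into D1-Cre and D2-Cre mice. In the arms named D1-D2, D1-Cre mice received vectors that do not need Cre. The arms exist for females and males, which with the guide makes 12 groups. The class with cortical transcripts held 10 libraries with the Fosb guide and 11 with the control guide, and 17 were female and 4 male. The class without them held 15 with the Fosb guide and 16 with the control guide, and 17 were female and 14 male. The labels do not say whether each library came from its own animal, so p-values measure only the spread between these libraries, which may be technical.

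Nearly all neurons of the accumbens are GABAergic medium spiny neurons, which carry D1 or D2 dopamine receptors. Excitatory neurons of the overlying cortex, claustrum and neighbouring olfactory areas load glutamate with the Slc17a7 product and are specified by factors such as Neurod2, Neurod6, Tbr1 and Fezf2. Their axons reach the accumbens, while their cell bodies, which hold most of their mRNA, lie outside it. In bulk tissue, fewer cells of a type and less RNA per cell cannot be told apart.

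Slc17a7 ran from 128 CPM, with a median of 232 CPM, to 670 CPM in the 21 libraries with cortical transcripts, and from 1.73 CPM, with a median of 5.12 CPM, to 9.91 CPM in the 31 libraries without. Just inside the upper limit lay female D1 targeted library 16754 at 128 CPM and female D1-D2 targeted library 19596 at 132 CPM, and just outside it female D1-D2 targeted library 19597 at 76.8 CPM and female D2 control library 17910 at 76.6 CPM. No library lay between 76.8 and 128 CPM. Around the lower limit there was no such gap. Male D2 targeted library 18777 at 9.91 CPM and female D1-D2 targeted library 19610 at 9.87 CPM were just inside, and male D1 targeted library 18722 at 10.2 CPM was just outside.

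**Figure D1:**
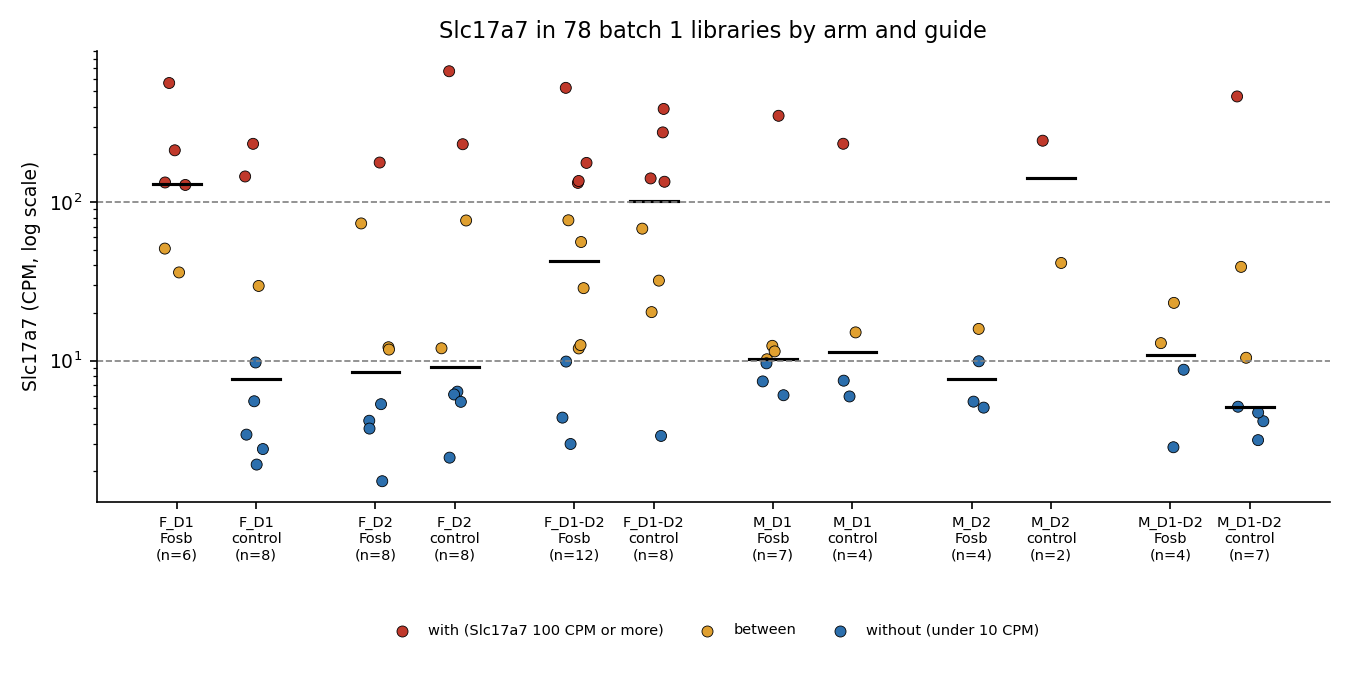
Slc17a7 in CPM (log axis) in each of the 78 batch 1 libraries, by arm, with the Fosb guide left of the control guide. Points are libraries coloured by class, black lines are medians, and dashed lines mark 100 and 10 CPM. High and low libraries occur in most arms, and the highest one, at 670 CPM, is a female D2 control.

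Total counts ran from 15030373 to 57336235 in the class with cortical transcripts and from 13481753 to 54013949 in the class without. In 5 libraries of the classes, 10 genes held over 50% of all counts. These were 16754 and 18383 of the class with cortical transcripts, and 17907, 17457 and 19610 of the class without. Such genes lower the CPM of all others. Scaling by TMM, edgeR's correction for composition, set Slc17a7 in library 19610 at 214 TMM-scaled CPM, within the range of the libraries with cortical transcripts, in which it ran from 109 to 584. In library 17907 it was 25.6. In the other 29 libraries without cortical transcripts it reached at most 8.29. Library 19610 therefore goes against its class, and the results below are also given with these 5 libraries left out. Male D1-D2 control library 19511, in the class without, also stood apart, with the lowest Drd1 and Ppp1r1b of that class at 88.2 and 84.5 TMM-scaled CPM. Unless CPM is named alone, levels below are TMM-scaled CPM.

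Fezf2, the factor of subcortically projecting cortical neurons that was given as the second marker, was not used to choose the classes. It ran from 0.92 to 13.6, with a median of 2.36, in the libraries with cortical transcripts, and from 0 to 1.61, with a median of 0.62, in those without, and these ranges overlapped. Its log2 fold change was 2.49 ± 0.27 (SE). The label held for the wider set of cortical excitatory genes. Of 20 pan-cortical glutamatergic genes, Slc17a7 among them, all 20 were higher at an adjusted p of 0.05 in edgeR's quasi-likelihood test, used here only to sort genes. Their median log2 fold change was 2.79, against −0.01 over the 21061 genes compared. Over all genes the same limit marked 1903 as higher, 9.04%, and 700 as lower, 3.32%. The choice of libraries by Slc17a7 uses the same counts, so nothing is read from these shares.

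The transcription factors of this list lay farthest apart. Neurod2, a factor that drives excitatory neuron maturation, ran from 3.70 to 34.1, with a median of 10.3, in libraries with cortical transcripts, and had a median of 0.25 in those without. In 28 of the 31 libraries without cortical transcripts it reached at most 0.68, while library 17907 had 3.08 and library 19610 had 19.3. Tbr1, which specifies early-born deep-layer neurons, ran from 10.8 to 63.5 with a median of 21.9, against a median of 0.90 in the class without. The log2 fold changes were 5.44 ± 0.33 for Neurod2, 5.13 ± 0.31 for Neurod6, 4.56 ± 0.31 for Tbr1, 4.29 ± 0.28 for Emx1 and 4.24 ± 0.36 for Neurod1. Without the 5 libraries set by a few genes, Neurod2 was at 5.67 ± 0.27 and Tbr1 at 4.69 ± 0.26, and all 20 listed genes were still marked as higher. Members with a sizeable level in libraries without cortical transcripts lay closer together. Mef2c, a factor of maturing neurons, had a median of 159 in libraries with cortical transcripts and 102 in those without, and the synaptic vesicle protein gene Sv2b had 393 and 201.

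The promoters of 3 of these genes are shown because the genes move together across libraries. NeuroD factors bind the letters CAGATG, searched on both strands (CATCTG on the other), and these are in capitals. Windows run from 250 bases before to 50 after the start, are from RefSeq on GRCm38.p6, and are printed on the strand of the gene. They are Slc17a7 at chr7:45163671-45163970 on the plus strand, Neurod2 at chr11:98329596-98329895 on the minus strand and Cck at chr9:121495645-121495944 on the minus strand.
Slc17a7: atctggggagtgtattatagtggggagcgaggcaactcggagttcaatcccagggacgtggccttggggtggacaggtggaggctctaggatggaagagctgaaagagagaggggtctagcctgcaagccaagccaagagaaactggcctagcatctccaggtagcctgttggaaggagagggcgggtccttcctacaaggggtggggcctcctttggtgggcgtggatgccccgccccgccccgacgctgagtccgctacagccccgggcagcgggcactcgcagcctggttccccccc
Neurod2: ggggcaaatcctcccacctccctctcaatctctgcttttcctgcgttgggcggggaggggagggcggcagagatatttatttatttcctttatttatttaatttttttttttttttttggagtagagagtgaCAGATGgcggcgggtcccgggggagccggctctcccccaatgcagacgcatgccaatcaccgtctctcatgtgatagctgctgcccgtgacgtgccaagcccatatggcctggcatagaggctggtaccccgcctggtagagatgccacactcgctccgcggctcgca
Cck: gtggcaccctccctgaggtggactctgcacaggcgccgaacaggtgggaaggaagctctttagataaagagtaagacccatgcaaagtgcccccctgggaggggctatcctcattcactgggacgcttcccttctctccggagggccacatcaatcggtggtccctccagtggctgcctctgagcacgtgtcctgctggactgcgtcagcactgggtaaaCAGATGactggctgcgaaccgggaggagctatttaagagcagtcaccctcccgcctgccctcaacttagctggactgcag
The window of Slc17a7 holds no match, and those of Neurod2 and Cck hold 1 each. The 20 genes with the largest fold changes were taken among those with an established symbol and a mean of at least 1 CPM. Of these 20, 14 had windows in the RefSeq table. Of their 17 windows, 3 held the letters, 17.6%, close to the 17.2% of all 32851 windows.

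Layer markers were uneven. For these and the lists of the next paragraph, the shares over all genes were 9.04% higher and 3.32% lower. Of 11 genes of cortical layer 6 and the subplate, 6 were higher and none lower, with a list median of 1.71. These were Tbr1, Cplx3 (4.19 ± 0.30), a synaptic complexin of deep-layer and subplate neurons, Nr4a2 (3.54 ± 0.21), a nuclear receptor of subplate and claustrum neurons, Ccn2 (3.41 ± 0.22), a secreted matricellular protein of layer 6b, Nxph4 (2.02 ± 0.22) and Ntsr1 (1.71 ± 0.27), a receptor of corticothalamic neurons. Ccn2 ran from 9.44 to 48.7 in libraries with cortical transcripts and from 1.47 to 4.81 in the 28 libraries without them in which no few genes dominate. Foxp2, Tle4, Syt6, Rprm and Moxd1 of the same list lay between 0.01 and 0.17 and were not marked. Tle4 and Foxp2 had similar levels in both classes: Tle4 had a median of 116 with and 111 without cortical transcripts, and Foxp2 48.6 and 46.7.

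Of 8 layer 5 genes, Fezf2 and Deptor (0.44 ± 0.10) were higher and Tcerg1l lower (−0.35 ± 0.12), and the list median was 0.04. Of 10 upper-layer genes only Rorb, a receptor of layer 4, was higher (0.57 ± 0.10), while Calb1 (−0.45 ± 0.11) and Lamp5 (−0.39 ± 0.13) were lower, and the list median was −0.10. Cux2 and Rasgrf2 were at −0.03 and −0.04. Tcerg1l was no longer marked without the 5 libraries. Of 6 claustrum and endopiriform genes, Nr4a2 and Ntng2 (1.45 ± 0.12), a presynaptic netrin relative, were higher, and Gnb4, Lxn, Oprk1 and Synpr lay between −0.26 and 0.30. Of 6 hippocampal genes with enough counts, Ccn3 (3.57 ± 0.21) and Fibcd1 (0.71 ± 0.20) were higher and C1ql2 lower (−0.84 ± 0.25). Of 6 olfactory bulb genes Doc2g (0.87 ± 0.19) and Cdhr1 (0.51 ± 0.16) were higher and Th was lower (−0.46 ± 0.10). Eomes and Tbx21, factors of olfactory bulb projection neurons, had −0.54 ± 0.31 and −0.62 ± 0.34 and were not marked.

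**Figure D2:**
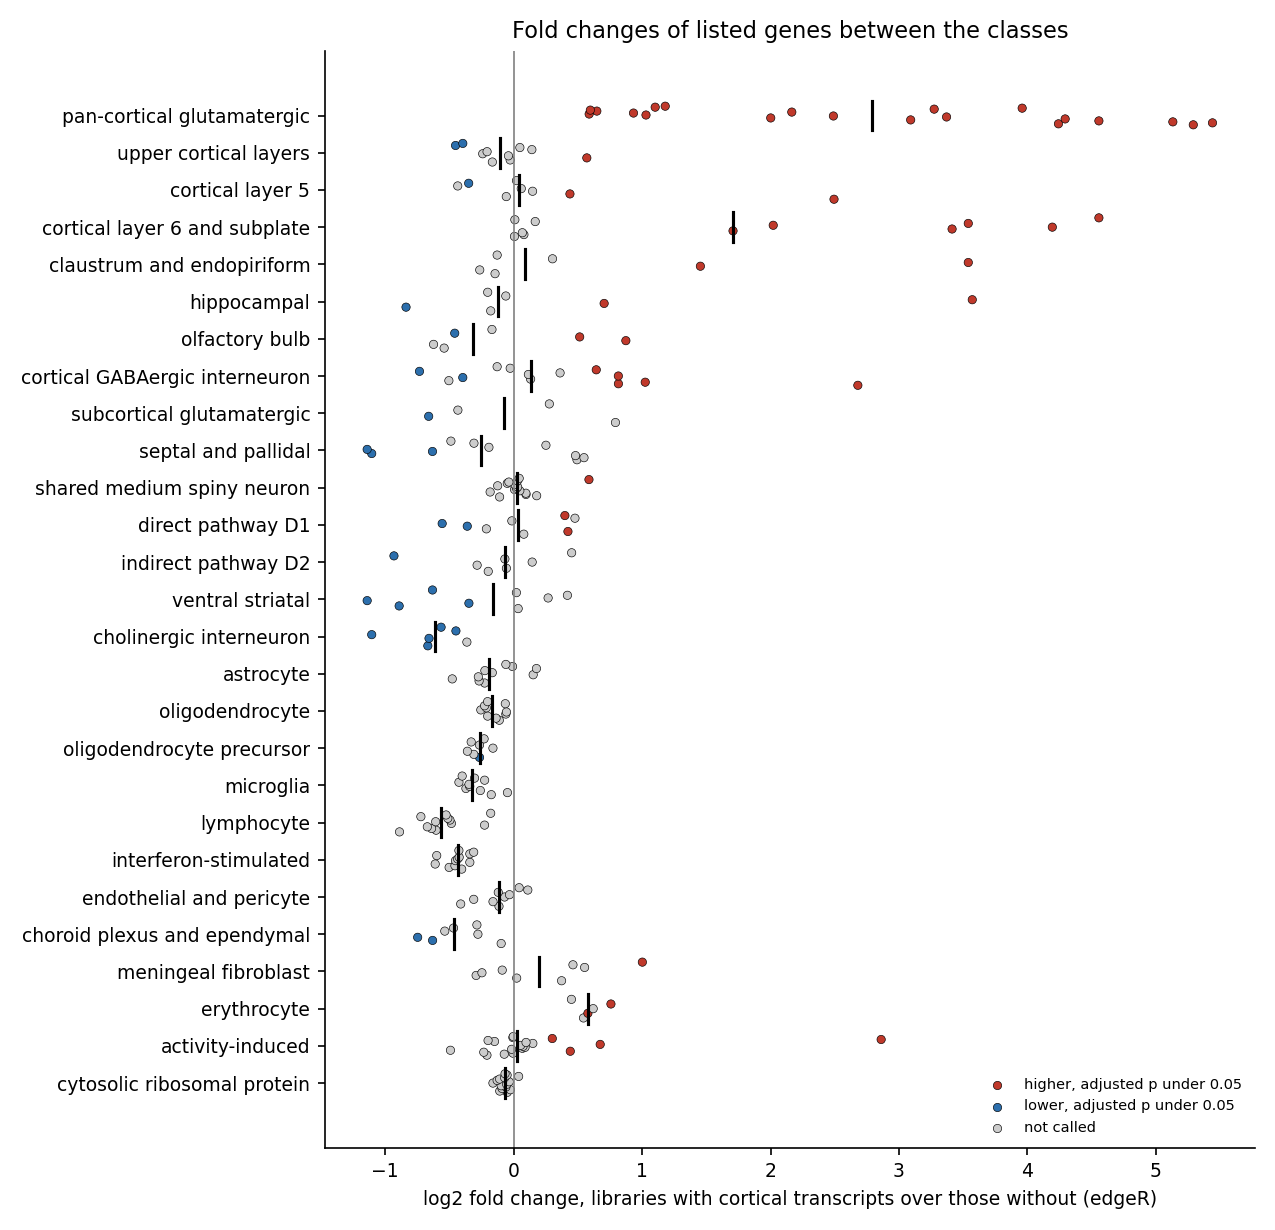
Log2 fold change, libraries with cortical transcripts over those without, for each measured gene of 27 lists. Points are genes, red where higher and blue where lower at an adjusted p of 0.05, and black lines are list medians. The pan-cortical list, with a median of 2.79, lies to the right of the others, and the medium spiny neuron lists are centred near 0.

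Every library with cortical transcripts lay above every library without them for 6 genes, 0.0285% of those compared, and below for none. Of these, Slc30a3, the vesicular zinc transporter of glutamatergic terminals, had 2.60 to 22.3 with cortical transcripts and at most 0.95 without. Libraries 19610 and 17907 of the class without held no read of it. They held only 133 and 25 reads of Slc17a7, so the depth there may be too low to detect Slc30a3. Rtn4rl2, a Nogo receptor relative, had 1.06 to 10.5 and at most 0.58. The remaining ones carry provisional symbols. When the 5 libraries were left out, 40 genes separated completely, 0.19%, and none lay wholly below. They include Neurod2, Neurod6, Tbr1, Emx1, Slc17a7, Cck, Ccn2, Ccn3, Cplx3, Nr4a2, Nxph3, Prdm8, Bmp3, Nptx1 and Sv2b. Slc17a7 itself was used by the rule.

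Over all genes compared, the largest log2 fold change was 6.04. Among those with an established symbol and a mean of at least 1 CPM, the 20 largest ran from 2.87 to 5.44. Beside the genes named above they include secreted factors and neuropeptides: Cck (3.27 ± 0.23), the cholecystokinin precursor, Bmp3 (4.04 ± 0.28), a bone morphogenetic protein, Nrn1 (3.37 ± 0.29), the growth factor neuritin, Scube1 (2.91 ± 0.20) and Adcyap1 (2.87 ± 0.32), the PACAP precursor. Others were Prdm8 (4.51 ± 0.23), a transcriptional repressor of cortical projection neurons, Nxph3 (3.92 ± 0.22), a neurexin ligand, Prss12 (3.53 ± 0.24), the protease neurotrypsin, and Gucy2g (2.89 ± 0.22). Cck ran from 18.4 to 136 in libraries with cortical transcripts, and had a median of 5.41 in those without. In all, 251 of the 1903 genes marked as higher differed by at least 1 on the log2 scale and 76 by at least 2. All 20 were still marked without the 5 libraries, without library 19511 and without library 19610.

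**Figure D3:**
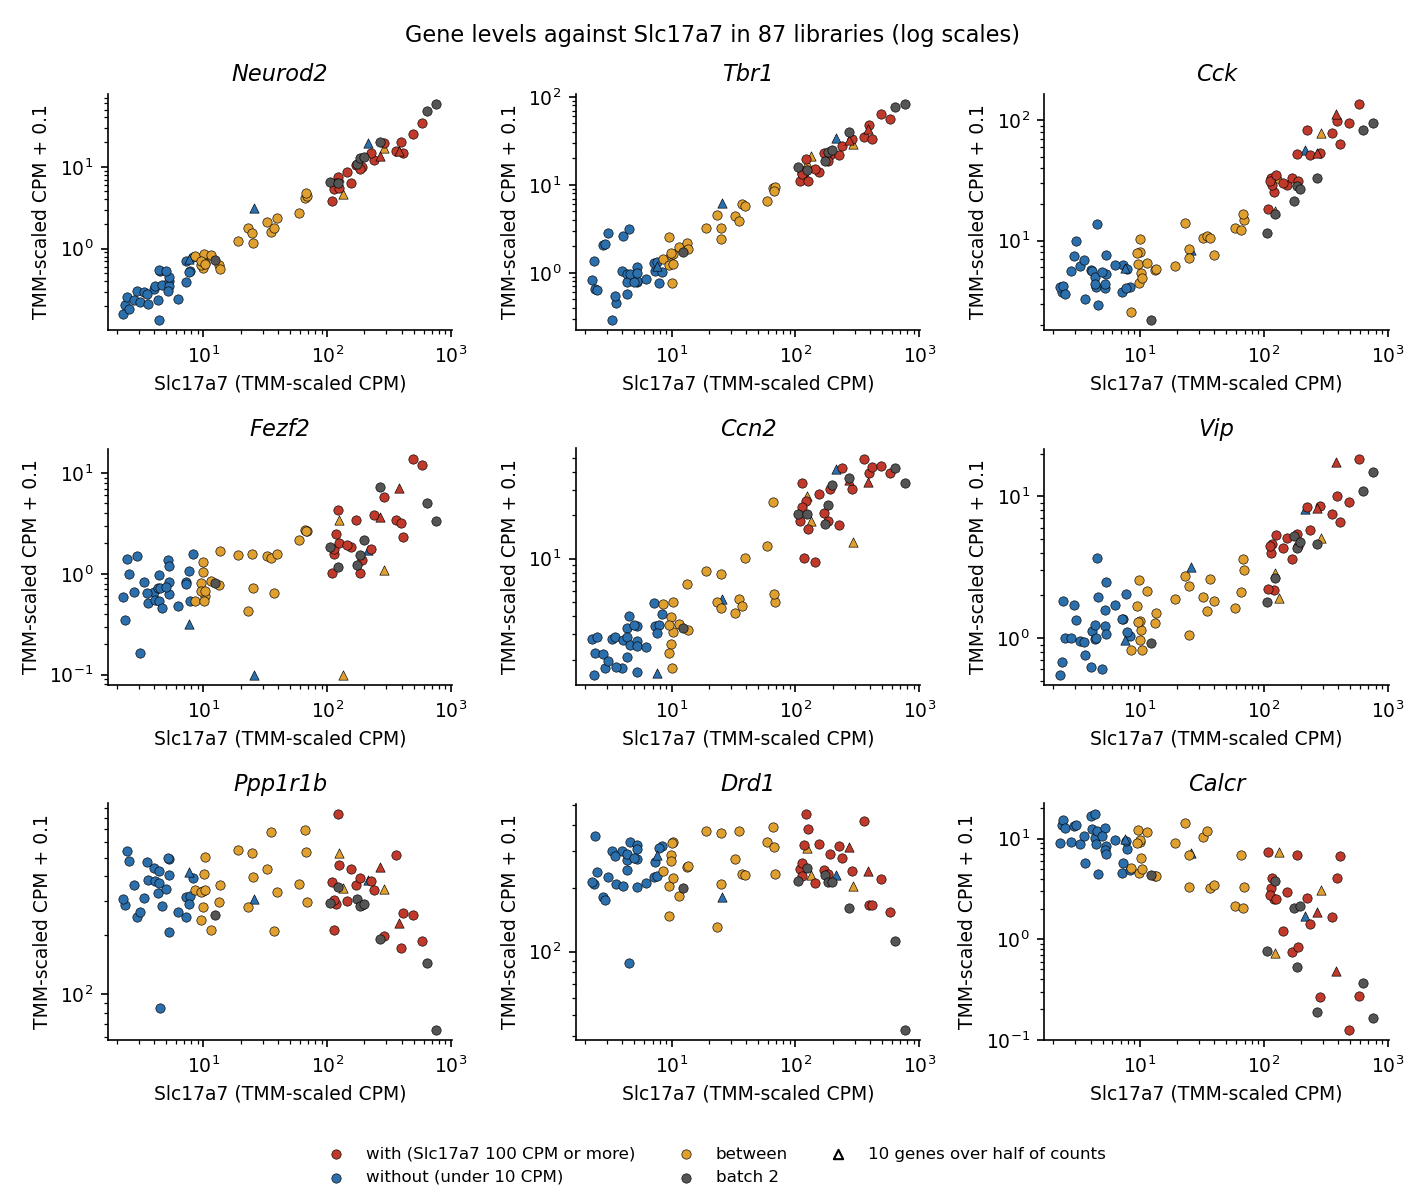
TMM-scaled CPM (plus 0.1) of 9 genes against TMM-scaled CPM of Slc17a7 in all 87 libraries, both axes logarithmic. Colours give the class and triangles mark libraries in which 10 genes held over 50% of counts. Neurod2 and Tbr1 rise with Slc17a7 from the class without to the class with cortical transcripts. Within the class without, Tbr1 is scattered, from 5.88 per 100 reads of Slc17a7 in library 18142 to 89.7 in library 18168. Ppp1r1b and Drd1 show no such rise and are low in the highest libraries, and Calcr is lower where Slc17a7 is high.

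Within the 21 libraries, the genes did not keep one ratio to each other. Per 100 reads of Slc17a7, Tbr1 had a median of 11.5 reads and ran from 8.03 to 16.2, and Neurod2 had a median of 5.12 and ran from 3.40 to 6.81, each a range of about 2-fold. Cck ran from 15.5 to 36.9. Fezf2 ran from 0.50 reads in female D1 control library 17455 to 3.45 reads in female D1-D2 targeted library 19596, a range of 6.84-fold. Ccn2 ran from 6.59 reads in library 18150 to 29.8 in library 19762, and Cplx3 from 0.82 in library 18150 to 7.78 in library 19596. The mix of deep-layer genes relative to Slc17a7 thus differed between libraries. Part of each ratio is the level that the accumbens gives by itself, and these ratios carry no test.

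**Figure D4:**
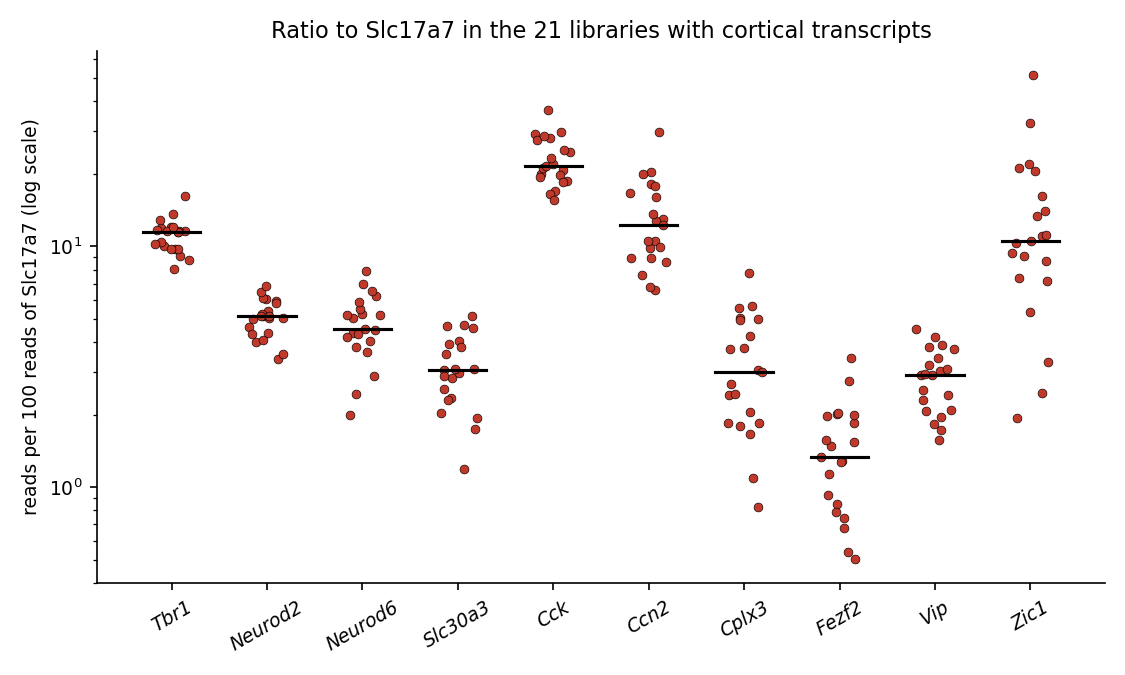
Reads of 10 genes per 100 reads of Slc17a7 (log axis) in the 21 libraries with cortical transcripts. Points are libraries and lines are medians. Tbr1 and Neurod2 are narrow, at 8.03 to 16.2 and 3.40 to 6.81, whereas Ccn2, Cplx3, Fezf2 and the septal gene Zic1 are spread more widely.

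Genes of cortical interneurons were split, beside 9.04% of all genes marked as higher and 3.32% as lower. Of 13, Vip (2.68 ± 0.21), a vasoactive peptide, Sst (1.03 ± 0.18), Pvalb (0.82 ± 0.25), Ndnf (0.82 ± 0.28) and Npy (0.64 ± 0.19) were higher, and Lamp5 and Tac2 (−0.73 ± 0.22) lower. Vip ran from 2.09 to 18.2 with cortical transcripts and had a median of 1.01 without. Gad1 and Gad2, which all GABAergic neurons share, were at −0.03 and −0.13. Without the 5 libraries, Pvalb, Ndnf and Tac2 were no longer marked, and Ndnf was not marked without library 19511 either.

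Marks were uneven among medium spiny neuron genes. Over all genes, 9.04% were marked as higher and 3.32% as lower. Of 16 genes that both kinds of these neurons share, only Rxrg, a retinoid receptor, was marked, as higher (0.59 ± 0.13), and the list median was 0.03. Drd1 ran from 155 to 449, with a median of 246, in libraries with cortical transcripts, and from 88.2 to 355, with a median of 245, in those without. Drd2 had medians of 61.8 and 61.3, and Ppp1r1b, the DARPP-32 gene, 304 and 344. The ranges overlapped widely. The summed level of the 16 genes had a median of 4502 with cortical transcripts and 4420 without. Of 8 direct pathway genes Tac1 (0.42 ± 0.12), the substance P precursor, and Eya1 (0.40 ± 0.09) were higher, and Ebf1 (−0.56 ± 0.12) and Isl1 (−0.36 ± 0.11), factors of direct pathway neurons, lower. Tac1 was not marked without the 5 libraries. Of 7 measured indirect pathway genes only Ttc12 was marked, as lower (−0.93 ± 0.23), and Penk and Adora2a were at −0.28 ± 0.13 and −0.06 ± 0.14.

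Ventral striatal and cholinergic genes were among those lower with cortical transcripts, beside 3.32% of all genes marked as lower. Of 8 ventral striatal genes, Dlk1 (−1.14 ± 0.19), a Notch ligand relative, Wfs1 (−0.89 ± 0.18), an endoplasmic reticulum protein, Nts (−0.63 ± 0.19), the neurotensin precursor, and Crym (−0.35 ± 0.11) were lower, and none higher. Wfs1 ran from 41.4 to 293, with a median of 123, in libraries with cortical transcripts and from 88.0 to 397, with a median of 225, in those without. Drd3, Stard5, Oprm1 and Cartpt lay between 0.02 and 0.42 and were not marked. Of 6 cholinergic interneuron genes, 5 were lower, among them Lhx8 (−1.10 ± 0.21), a factor of these neurons, Chat (−0.67 ± 0.16), which makes acetylcholine, Slc18a3 (−0.66 ± 0.18) and Ecel1 (−0.45 ± 0.15), and Slc5a7 was at −0.36 ± 0.14. Chat had medians of 3.75 and 5.14. Slc17a8, the glutamate transporter that cholinergic neurons also carry, was lower as well (−0.66 ± 0.17). Nts and Ecel1 were not marked without the 5 libraries. Of 10 septal and pallidal genes Lhx8, Nts and Dlk1, all named above, were lower, and Zic1 was at 0.49 ± 0.27.

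Over all genes compared, the lowest log2 fold change was −2.65. Under the same conditions on symbol and level, the 20 lowest ran from −2.16 to −1.31, smaller in size than at the other end. Several encode receptors for peptides and hormones: Calcr (−2.10 ± 0.31), the calcitonin receptor, Prlr (−1.71 ± 0.38), the prolactin receptor, Brs3 (−1.42 ± 0.24), the bombesin receptor subtype, and Gpr101 (−1.57 ± 0.24), an orphan receptor. Calcr ran from 0.03 to 7.32, with a median of 2.39, in libraries with cortical transcripts, and from 1.61 to 17.4, with a median of 9.45, in those without, so that the classes overlapped. Gpr101 had medians of 9.92 and 22.2. Peg10 (−1.48 ± 0.18), a paternally expressed gene of retrotransposon origin, ran from 14.4 to 60.7, with a median of 29.2, in libraries with cortical transcripts, and from 33.4 to 161, with a median of 85.8, in those without. Others were Gabrq (−2.16 ± 0.29), a GABA receptor subunit, Irs4 (−1.94 ± 0.38), Crh (−1.83 ± 0.32), the corticotropin-releasing hormone gene, Agt (−1.59 ± 0.39), angiotensinogen, Arhgap36 (−1.49 ± 0.21), AW551984 (−1.45 ± 0.19), Dio3 (−1.39 ± 0.17), a thyroid hormone deiodinase, Igsf1 (−1.32 ± 0.27) and Vwa5b1 (−1.31 ± 0.32), together with Nespas (−1.70 ± 0.41).

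Single libraries had a share in these values. Of the 20 genes, 9 had their highest level in library 19511, where Agt was at 78.7 and Irs4 at 33.2, against medians of 3.88 and 1.00 in libraries with cortical transcripts and 4.53 and 2.19 in those without. All 20 were still marked as lower without library 19511. The remaining 5 were immunoglobulin and plasma cell genes, Igkv8-30, Igkv1-117, Iglv1, Igkv6-23 and Mzb1, between −1.85 and −1.37. They were at 0 in some libraries of both classes, and none of the 5 was marked when the libraries dominated by few genes were left out.

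Few markers of glia, vessels and immune cells were marked, beside 9.04% of all genes marked as higher and 3.32% as lower. No gene was marked among 10 of astrocytes, 10 of oligodendrocytes, 10 of microglia, 12 of lymphocytes, 12 interferon-stimulated, 9 of endothelium and pericytes and 15 of cytosolic ribosomal proteins. Medians of these lists lay between −0.56 for lymphocytes and −0.07 for ribosomal proteins. Every measured oligodendrocyte, microglial, lymphocyte and interferon-stimulated gene had a fold change below 0, with an interferon median of −0.43. Above 0 lay 2 astrocyte genes, 2 of endothelium and pericytes and 1 ribosomal protein gene. These directions were not tested. Among 7 oligodendrocyte precursor genes Pdgfra was lower (−0.26 ± 0.09), and among 7 choroid plexus and ependymal genes Clic6 (−0.63 ± 0.13) and Foxj1 (−0.75 ± 0.18) were lower. Ogn (1.00 ± 0.29) was higher among 8 meningeal fibroblast genes, and Hba-a2 (0.58 ± 0.20) and Hbb-bt (0.76 ± 0.26) among 5 of erythrocytes. Pdgfra, Hba-a2 and Hbb-bt were not marked without the 5 libraries dominated by few genes. The summed level of the erythrocyte genes had a median of 305 with cortical transcripts and 224 without. The part of these cells in the results was not tested. Slc17a6, the glutamate transporter of subcortical neurons, had medians of 6.82 and 1.80 and a log2 fold change of 0.79 ± 0.41, which was not marked.

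Of 20 activity-induced genes, 4 were higher and none lower, beside 9.04% and 3.32% of all genes. Bdnf, a neurotrophin that corticostriatal neurons make, had the largest difference (2.86 ± 0.24), with medians of 5.07 and 0.65. Nr4a3 (0.67 ± 0.20), Egr1 (0.44 ± 0.15) and Homer1 (0.30 ± 0.10) were closer, and of these Egr1 and Homer1 were not marked without the 5 libraries. Fosb, the gene the guide addresses, had medians of 6.36 and 6.81 and a log2 fold change of −0.07 ± 0.16.

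In the 35 libraries outside the classes, each gene was fitted against log2 CPM of Slc17a7, with sex, guide and sequencing batch as covariates. These are 26 batch 1 libraries with Slc17a7 at 10.2 to 76.8 CPM and 9 male D2 libraries of batch 2 at 18.3 to 969 CPM. None of them had chosen the classes. In 3 of the 26, libraries 18432, 18919 and 19597, 10 genes held over 50% of all counts. Their Slc17a7 was at 11.7, 23.1 and 76.8 CPM but at 133, 289 and 124 TMM-scaled CPM, so the fit places them too low on the Slc17a7 axis. Of 19183 genes, 1780 rose with Slc17a7, 9.28%, and 373 fell, 1.94%, at an adjusted p of 0.05 (edgeR quasi-likelihood). Of the 1792 genes higher in libraries with cortical transcripts that could be fitted, 1163 rose and none fell. They are 64.9% of those genes and 65.3% of all that rose. Of 642 genes lower in the class with cortical transcripts, 49 fell and none rose. Without the 3 libraries dominated by few genes, 1552 genes rose and 268 fell.

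The cortical excitatory genes led these slopes. A slope of 1 means a doubling of a gene for each doubling of Slc17a7. Neurod2 rose with a slope of 1.10 ± 0.11 (SE, adjusted p = 2.92e-08), Neurod6 with 1.05 ± 0.12 (adjusted p = 3.48e-07), Bmp3 with 1.01 ± 0.14 (adjusted p = 1.30e-05) and Tbr1 with 0.96 ± 0.13 (adjusted p = 6.06e-06), all by edgeR. The 10 largest slopes were taken among genes with an established symbol and a mean of at least 1 CPM. They also included Rtn4rl2, Slc30a3, Npsr1, Cplx3 and Nxph3, at 0.85 to 0.94. Slc17a7 was among the 10 too, and its slope of 0.95 sets the gene against its own level. Npsr1, the neuropeptide S receptor gene, was outside the 20 largest fold changes, at 2.57 ± 0.25. All 18 pan-cortical genes that could be fitted, again with Slc17a7, rose, with a median slope of 0.62, and so did Fezf2 (0.57 ± 0.10, adjusted p = 3.60e-04 by edgeR). Without libraries 3631 and 3632, the pair with the highest Slc17a7, 10 of the 18 still passed. Of the 11 layer 6 and subplate genes 6 rose, and 5 of these without the pair. Among interneuron genes Vip (0.57 ± 0.08), Sst (0.25 ± 0.07) and Pvalb (0.34 ± 0.10) rose, and of the activity list only Bdnf rose (0.75 ± 0.08). Sst and Pvalb did not pass without the pair. Of 15 cytosolic ribosomal protein genes 5 fell, against 1.94% of all genes, with 8 falling within batch 2 and none within batch 1. Among 10 microglial genes 1 fell, and among 10 astrocyte genes only Slc1a2 rose. Without the pair none of these passed.

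All 20 genes with the largest fold changes between the classes, Slc17a7 included, rose in these libraries, and 15 of the 19 that could still be fitted passed without libraries 3631 and 3632. Of the 20 with the lowest, 16 could be fitted, of which Calcr (−0.61 ± 0.16, adjusted p = 0.0101), Gpr101 (−0.47 ± 0.13, adjusted p = 0.0168), Peg10 (−0.35 ± 0.08, adjusted p = 0.00667) and AW551984 (−0.39 ± 0.10, adjusted p = 0.00673) fell by edgeR's test, and 15 of the 16 had a slope below 0.

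Genes of medium spiny neurons themselves had pooled slopes near 0, and the values had opposite signs in the 2 sequencing batches for Drd1, Drd2 and Ppp1r1b. In the 35 libraries no shared medium spiny neuron gene passed in either direction, and no cholinergic or ventral striatal gene did. The pooled slopes were −0.04 ± 0.07 for Drd1, −0.01 ± 0.08 for Drd2 and −0.01 ± 0.08 for Ppp1r1b. Within the 26 batch 1 libraries they were 0.08 ± 0.07, 0.18 ± 0.10 and 0.14 ± 0.09, and within the 9 batch 2 libraries −0.29 ± 0.15, −0.29 ± 0.14 and −0.28 ± 0.15, none of which passed. The batch 2 values rest on single libraries. Without library 3631 they were −0.08, −0.09 and −0.08, and without library 2755, which had the lowest Slc17a7 of batch 2 at 18.3 CPM, they were −0.76, −0.73 and −0.75 and all 3 passed (adjusted p = 0.00839, 0.0146 and 0.00441 by edgeR). List medians differed in the same way, at 0.17 in batch 1 and −0.19 in batch 2 for the 16 shared medium spiny neuron genes. They were 0.11 and −0.29 for the 7 indirect pathway genes that could be fitted, and 0.21 and −0.40 for the 6 cholinergic genes. Of these 3 lists no gene passed within either batch. Of the 8 ventral striatal genes Crym, which encodes a thyroid hormone-binding protein, fell within batch 2 (−0.29 ± 0.08, adjusted p = 0.0424 by edgeR), with −0.05 ± 0.07 in batch 1. The difference between the batches was not tested.

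**Figure D5:**
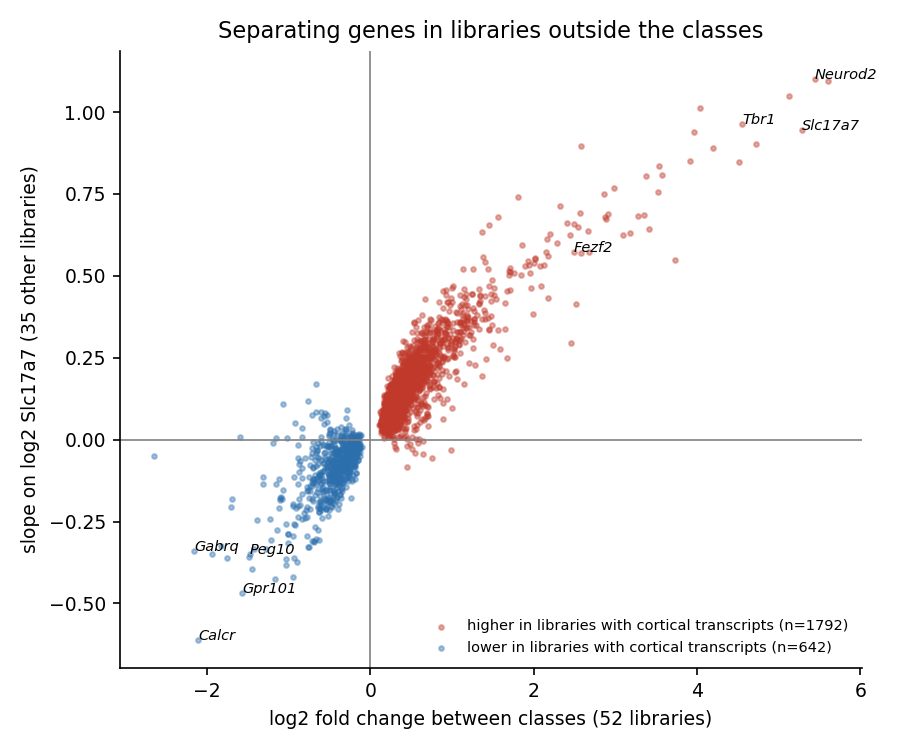
Slope on log2 Slc17a7 in the 35 libraries outside the classes against the log2 fold change between the classes, for genes higher (red, 1792) or lower (blue, 642) with cortical transcripts. Points are genes. No red gene fell and no blue gene rose at an adjusted p of 0.05, and Neurod2 lies at the upper right and Calcr at the lower left.

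The count of genes that rose rests on a pair of batch 2 libraries. Male D2 control library 3631 and male D2 targeted library 3632 had Slc17a7 at 969 and 830 CPM, above every batch 1 library. Library 3631 also had the lowest Drd1 (42.6) and Ppp1r1b (65.4) of the batch 2 libraries, whose medians were 214 and 282. Without library 3631, 969 genes rose and 64 fell. Without both, 156 rose and none fell by edgeR, with 3188 genes at an unadjusted p under 0.05, and 153 of the 156 were higher in the class with cortical transcripts. Neurod2 then had 1.08 ± 0.13, Tbr1 0.96 ± 0.15 and Fezf2 0.61 ± 0.11, and all of these still rose. Of the 18 pan-cortical genes 8 no longer passed, namely Bhlhe22, Sv2b, Mef2c, Vsnl1, Kcnv1, Cck, Lingo1 and Chrm3. Slc30a3 (0.63 ± 0.20, adjusted p = 0.112), Cck (0.58 ± 0.16, adjusted p = 0.0746), Gucy2g (0.41 ± 0.11, adjusted p = 0.0623) and Adcyap1 (0.44 ± 0.24, adjusted p = 0.345), among the 20 largest fold changes, did not pass edgeR's test, and Prdm8 could not be fitted. Nor did Sst (0.26 ± 0.08), Pvalb (0.34 ± 0.12) and the layer 6 gene Ntsr1 (0.43 ± 0.13) pass. All of these slopes remained above 0. The slopes of Calcr (−0.49 ± 0.16), Gpr101 (−0.34 ± 0.13), Peg10 (−0.27 ± 0.09) and AW551984 (−0.30 ± 0.10) kept their sign and no longer passed.

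Within batch 1 alone, in the 26 libraries between the limits, 16 genes rose, 0.0842% of 19009, and all 16 were higher in the class with cortical transcripts. None fell, and 2233 genes had an unadjusted p under 0.05. The 26 include the 3 libraries dominated by few genes, and Slc17a7 itself, Tbr1 and Fezf2 were not among the 16. Of 17 pan-cortical genes fitted within batch 1, 4 rose. The 16 include Neurod2 (1.09 ± 0.18), Neurod6 (1.15 ± 0.19), Bmp3 (1.13 ± 0.22), Nxph3 (0.99 ± 0.15), Nr4a2 (0.91 ± 0.17), Prss12 (0.80 ± 0.14), Hs3st2 (0.56 ± 0.08), Nptx1 (0.61 ± 0.12) and Scube1 (0.59 ± 0.10). Hmgcs1, a cholesterol synthesis enzyme chosen here after its value was seen, rose with a slope of 0.23 ± 0.05. Within batch 2 alone, 1784 genes rose, 8.33%, and 705 fell, 3.29%.

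Cortical genes were also counted one by one in each library, by whether they lay above the range of the class without cortical transcripts. Of the 19 pan-cortical genes other than Slc17a7, the 21 libraries with cortical transcripts held 11 to 19 above every one of 28 libraries without them, those dominated by few genes left out, with a median of 15. The 26 libraries between the limits held 0 to 16, with a median of 4.5, and the 9 batch 2 libraries 1 to 18, with a median of 13. Library 19610, classed as without cortical transcripts, held 12. All 19 were held by 3 libraries, 16565, 16754 and 18383. Of these, 16754 and 18383 are dominated by few genes, and 16754 had Slc17a7 at 128 CPM but at 269 TMM-scaled CPM.

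Class and label were compared over the 52 libraries by Fisher's exact test, two-sided and adjusted over 4 comparisons. Cortical transcripts were found in 10 of 25 libraries with the Fosb guide (40%) and in 11 of 27 with the control guide (40.7%; p = 1). They were found in 17 of 34 female libraries (50%) and 4 of 18 male libraries (22.2%; exact p = 0.0759, adjusted p = 0.304). The shares were 26.7% of 15 D2-Cre libraries and 45.9% of 37 D1-Cre libraries (exact p = 0.230, adjusted p = 0.461), and 47.4% of 19 libraries with vectors independent of Cre and 36.4% of 33 with vectors that need it (exact p = 0.559, adjusted p = 0.746). None passed, although with limits of 50 and 20 CPM the female share of 51.1% exceeded the male share of 16% (exact p = 0.00475, adjusted p = 0.0190).

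Within arms, all batch 1 libraries were used. In the female D1 arm, Slc17a7 had a median of 131 CPM, from 36.0 to 565, in 6 libraries with the Fosb guide, and a median of 7.64 CPM, from 2.21 to 233, in 8 with the control guide. Every library with the Fosb guide was above the control median, and the ranges overlapped. The difference on the log2(CPM + 1) scale was 2.99, with an exact permutation p of 0.0246, two-sided, and 0.148 adjusted over 6 arms. In the male D2 arm, the 4 libraries with the Fosb guide had 5.05, 5.51, 9.91 and 15.9 CPM and the 2 with the control guide 41.3 and 244 CPM. These did not overlap, with a difference of −3.47 and an exact permutation p of 0.0667, the smallest that 4 against 2 can give (adjusted p = 0.200). The batch 2 libraries of the same groups were not used here. In them Slc17a7 was at 167, 408 and 830 CPM with the Fosb guide. With the control guide it ran from 18.3 to 969 CPM, so the ranges overlapped. Differences in the other arms ran from −0.95 in the female D2 arm to −0.35 in the male D1 arm, with exact permutation p from 0.412 to 0.870. No arm passed after adjustment, and the 2 arms with the largest differences had opposite signs.

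Beside the class term, edgeR called no gene changed by the Fosb guide over the 52 libraries, 0% of 21061, with 406 at an unadjusted p under 0.05. DESeq2 called none either. Fosb itself differed by 0.21 ± 0.14 on the log2 scale (edgeR adjusted p = 1.000) between Fosb and control guides. Without the class term edgeR again called none, with 327 at an unadjusted p under 0.05.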

How the data were processed

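The authors deposited a table of raw counts, whole numbers of reads per gene without normalization, for 55487 genes. Per the labels' protocols, RNA was isolated with an RNeasy kit and libraries were made with a stranded total RNA kit after ribosomal RNA removal. Per the submitters' processing notes, Trim Galore, HISAT2, SAMtools, featureCounts (Subread) and DESeq2 1.27 were used with mm10. The counting's annotation and strand setting, not given in the sources used here, leave overlapping and antisense genes uncertain. Of 88 labelled libraries, 87 had a column. The remaining one (female, D2, Fosb guide) is not analysed here, and 1 further column without a matching label was not used. Total counts ran from 12430387 to 69568367, with a median of 31393804. The depth sets the counting error of low genes: Slc17a7 had at least 25 counts in every library.

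CPM was the count over the column total. Tests across genes used robust quasi-likelihood in edgeR 4.0.16 under R 4.3.3, with TMM scaling, the filterByExpr filter and Benjamini-Hochberg adjustment at 0.05 over all genes tested, with sex and guide as covariates and, outside the classes, sequencing batch. The step was tested on simulated data. Fisher's exact test used SciPy 1.17.1, and the exact permutation tests went through every split of an arm's libraries. Positions came from GENCODE M21.

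Members, gene lists and tests were chosen with earlier results of these data known. The text names Slc17a7, Fezf2, Fosb, the members of the cortical and medium spiny neuron lists, up to 4 marked members of each other list, the 20 largest and 20 lowest fold changes at a mean of at least 1 CPM with an established symbol, and the 10 largest slopes. Alternatives were DESeq2 (1.42.0) size factors and Wald test, limma-voom (3.58.1), no filter, 12 groups or no covariates, other class limits and TMM-scaled classes, and libraries left out.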

Additional observations from a re-analysis of the deposited data

Results flagged for a closer look

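Among the 10 groups of 4 to 10 libraries, 1 held a library far from the others in Slc17a7, and chance marks about 1 group in 20. Male D1 targeted library 18368 had 350.69 CPM, while the other 6 libraries of its group had 6.05 to 12.4 CPM. It was 1 of the 4 male libraries with cortical transcripts. Without it, 1807 genes were higher and 549 lower in the class with cortical transcripts.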

How the results depend on the processing

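In the class fit, whose libraries were sorted by Slc17a7 itself, none of 99 named genes marked as higher or lower changed direction under 15 settings. Fezf2 was at 2.28 to 2.54 on the log2 scale when each library with cortical transcripts was left out in turn. Slc17a7, whose difference is set by the rule, was at 5.19 to 5.34 in these runs. It was at 5.75 without library 19610 and at 5.83 without the libraries dominated by few genes. The number of lower genes was less stable. Against 700, it was 1500 with the DESeq2 Wald test, 1896 with limma-voom, 290 with 12 groups as covariates, 1728 with limits of 50 and 20 CPM, 1439 with classes from TMM-scaled CPM, 431 without the libraries dominated by few genes, 215 without those and with 12 groups, 152 in females alone and 79 in males alone. Against 1903 higher genes there were 1115 with 12 groups, 803 with 12 groups and without the dominated libraries, 1110 in females and 427 in males. Leaving out each library with cortical transcripts gave 1590 to 2114 higher and 407 to 1024 lower genes, with 407 without library 18383 and 447 without library 18386. Without library 19511 there were 2045 and 837, and without library 19610 there were 1960 and 874.

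Outside the classes, 1780 genes rose and 373 fell. Falling genes numbered 238 without a filter, 990 with DESeq2, 880 with TMM-scaled Slc17a7, 0 between the limits (2233 at an unadjusted p under 0.05), 705 in batch 2, 64 without library 3631 and 0 without 3631 and 3632. Rising genes numbered 16 between the limits, 969 without library 3631 and 156 without both. Batch 2 alone gave 106 rising and 2 falling genes without both, and 117 to 2545 and 3 to 2147 when each library was left out in turn, with the lowest of both without library 3631. The guide called 1 gene, Gm43333, without a filter. The female share exceeded the male share by 35.1 percentage points, past the threshold, with limits of 50 and 20 CPM. The share with the Fosb guide exceeded that with the control guide by 5.88 points with TMM-scaled classes. The guide difference in log2 Slc17a7 was 0.40 in male D1-D2 mice with TMM scaling, −0.88 to 0.0007 when libraries were left out, −0.90 to 0.79 in the male D1 arm and −4.73 to −2.20 in the male D2 arm. The sign changed without library 19211 in the male D1-D2 arm and without library 18383 in the male D1 arm. The cause of these changes was not tested. No paired analysis was possible because library numbers are unique and the groups share none. Leaving out each library was set only for up to 15 libraries with cortical transcripts and was run for the 21 after seeing the data, as were the sexes alone and the runs without 19511, 19610, 3631 or 3632.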
